A study of Arabidopsis thaliana with 6 samples.

Results

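The comparison set wild-type Arabidopsis thaliana embryos at the globular stage (1 library) against 2-4 cell embryos whose mother carried kyp-2 (2 libraries, called kyp library 11 and kyp library 12), which together are 3 of the 6 libraries of the study. Libraries were assigned by the stage and maternal genotype in their labels. The globular embryos had a wild-type Landsberg erecta (Ler) mother and a Columbia (Col-0) father. The mothers of the kyp embryos were Ler plants with kyp-2, a mutant allele of KRYPTONITE (KYP), and their fathers were Col-0. The other libraries were WT libraries 7 and 11, which are 2-4 cell embryos of a wild-type Ler mother and a Col-0 father, and a wild-type Ler seed coat taken at the 2-4 cell stage. All plants grew under 16 h light, all embryos were dissected by hand with part of the suspensor, and all RNA was linearly amplified before SOLiD sequencing. Stage and maternal genotype both differ between the globular and the kyp libraries, so their parts in a difference cannot be told apart. Levels of the WT 2-4 cell libraries are therefore given beside the main values.

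After fertilisation the Arabidopsis zygote divides unequally, and the upper cell gives rise to most of the embryo while the lower cell gives rise mainly to the suspensor. By the globular stage an outer protoderm has separated from inner tissues, auxin flow has polarised, and precursors of vascular and ground tissue have formed. KYP, also called SUVH4, is a histone methyltransferase that places H3K9 methylation, a mark of silent chromatin that works together with DNA methylation.

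KYP itself (AT5G13960) had 44 reads in the globular library, 67 in kyp library 11 and 167 in kyp library 12. Its level was 26.1 CPM in globular embryos, 44.3 and 40.6 in the kyp libraries, 57.2 and 62.8 in WT libraries 7 and 11 and 34.5 in the seed coat. CPM here are read counts scaled to library size after trimmed-mean scaling between libraries (TMM). The log2 difference of −0.70 (SE 0.59) between globular and kyp embryos missed the threshold (adjusted p = 0.727 by edgeR). KYP overlaps a gene on the other strand, and whether the libraries kept strand is not stated. The counts hold no information on parental alleles, and kyp library 11 carries a second maternal genotype label of wild type beside kyp-2, as does the globular library beside its own wild-type label.

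Reads assigned to loci numbered 1773576 in the globular library and 1448503 and 4107228 in kyp libraries 11 and 12, and ranged from 1448503 to 4107228 over all 6. The spread of the single globular library was not measured and was taken to equal that of the 2-4 cell pairs. Whether paired libraries came from different plants is not stated in the labels, so a p-value here reflects the spread between samples, possibly a technical one. An exact permutation test of 1 library against 2 cannot go below a one-sided p of 0.333 (0.667 when doubled for 2 sides). Only the fit across all genes therefore gives calls. A set of 1038 nuclear loci whose sequence is almost wholly repeated elsewhere in the genome took 77340 reads in kyp library 12 and 58168 in WT library 11, whose names share the prefix MC, but 271 in the globular library and 280 in kyp library 11. Of these loci, 95 are matched by the mitochondrial sequence and 94 of those lie on chromosome 2, which carries a copy of that sequence. The part of this difference in other results was examined by leaving the loci out and by a term for the name prefix.

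Of 17706 genes tested, 54 were higher and 98 were lower in the globular library than in the kyp libraries at an adjusted p under 0.05, which is 0.305% and 0.553% of the genes and 0.858% together. At an unadjusted p under 0.05 there were 666 and 1292. The globular value lay above both kyp values in 34.3% of all tested genes and below both in 38.4%, and the median log2 difference over all genes was −0.13. Among the genes called higher, 6 had no read in either kyp library, and among those called lower, 29 had no read in the globular library. A fold for such genes is a lower bound against a floor of 3 reads per library. With the repeated loci left out, an alternative chosen after seeing the data, 67 genes were higher (0.378%) and 158 lower (0.892%) of 17721 tested, and all 152 genes called above were among them. Leaving out single libraries gave 82 and 253 (kyp library 11 omitted), 55 and 217 (kyp library 12), 152 and 379 (WT library 7) and 146 and 361 (WT library 11). DESeq2's Wald test on the same genes called 71 higher (0.401%) and 241 lower (1.36%). The share of transcript length covered by reads was similar in the 3 libraries, with medians of 47.0%, 49.6% and 49.5% in transcripts of 20 to 100 reads.

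**Figure D1:**
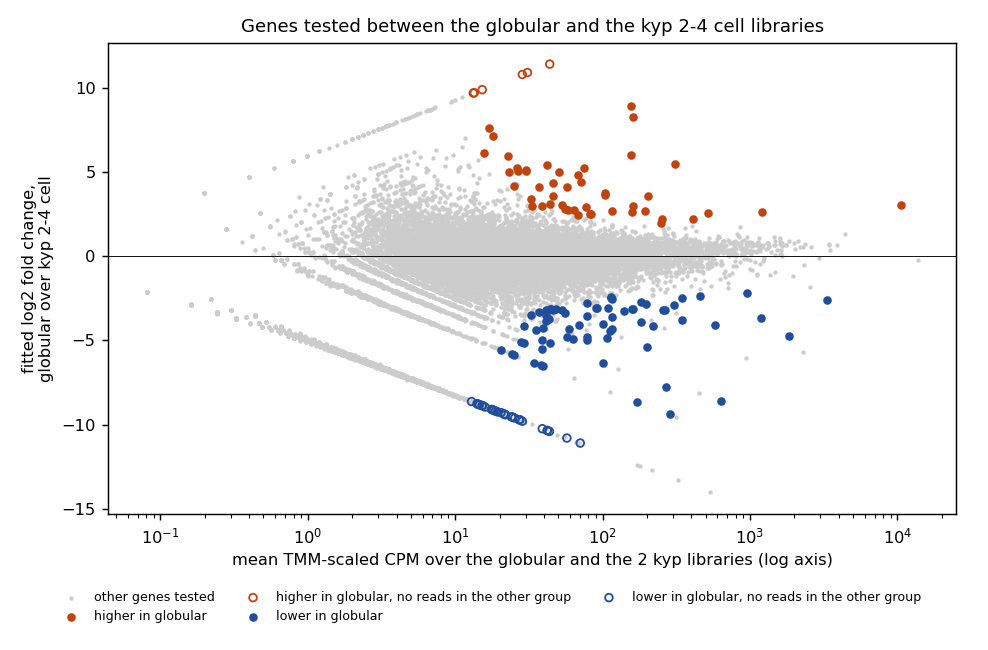
Each point is 1 of 17706 tested genes, with its mean level over the globular and both kyp libraries (TMM-scaled CPM, log axis) and its fitted log2 fold change, globular over kyp. The 54 genes called higher are orange and the 98 called lower are blue; open circles are the 6 and 29 genes without reads in the other group, whose fitted value is no bound.

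The genes called higher in the globular library included members of the cytokinin pathway. AHP6 (AT1G80100), a pseudo-phosphotransfer protein that inhibits cytokinin signalling in developing vascular tissue, had 156 reads in the globular library and none in either kyp library. It was also without reads in both WT 2-4 cell libraries and in the seed coat. The globular level of 92.6 CPM was at least 68.3-fold higher than that of the kyp libraries (edgeR adjusted p = 0.00165). WOL (AT2G01830), the cytokinin receptor also known as CRE1 and AHK4, was at 126 CPM in globular embryos and at 8.60 and 4.37 CPM in the kyp libraries. The 3 values did not overlap between stages, and WT libraries 7 and 11 stood near the kyp libraries at 5.12 and 7.85 CPM. WOL was 20.2-fold higher (log2 fold change 4.33, SE 0.71, adjusted p = 0.00555).

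These were the only members called among 14 tested genes of the cytokinin list, where 0.305% of all genes were called higher. Of the 14, 7 had a positive and 7 a negative difference, with a median of −0.40. The median changed sign with the library: it was −0.63 against kyp library 11 and 0.46 against kyp library 12. Such medians against a single kyp library are on the scale of log2(CPM + 1), while the others are of fitted log2 fold changes. ARR15, a response regulator that dampens cytokinin signalling, had 1 read in the globular library and 38 and 37 in the kyp libraries (adjusted p = 0.277). LOG1, an enzyme that activates cytokinins, had 1 read against 24 and 19 (adjusted p = 0.302). Neither passed the threshold.

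The list of auxin transport, synthesis and response genes had no common direction. Its 45 tested members split into 23 positive and 22 negative differences, with a median of 0.04. Several of them had sizeable values without passing. The influx carrier AUX1 was at 98.6 CPM against 15.9 and 29.1 (adjusted p = 0.0973). The response factor ARF3 was at 112 CPM against 27.1 and 25.3 (adjusted p = 0.0908), and ARF4 was at 74.8 against 10.6 and 13.6 (adjusted p = 0.0876). On the other side, the repressor gene IAA2 was at 0.594 CPM against 16.5 and 15.3 (adjusted p = 0.109). PIN3, an auxin efflux carrier, was at 37.4 CPM against 66.1 and 151 (adjusted p = 0.355).

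Among transcription factors that lay out the embryo, PHB and JKD passed the test. PHB (PHABULOSA, AT2G34710), a class III homeodomain leucine-zipper factor of the upper side of organs and of the central embryo, was at 268 CPM in globular embryos. It was at 28.4 and 15.3 CPM in the kyp libraries, 22.2 and 40.1 CPM in the WT 2-4 cell libraries and 19.3 CPM in the seed coat. The globular value stood far above every other library. PHB was 12.5-fold higher (log2 fold change 3.64, SE 0.56, adjusted p = 0.00305). JKD (JACKDAW, AT5G03150), a zinc finger protein of the ground tissue that binds the regulator SHORT-ROOT, had 68 reads in the globular library and none in the kyp or WT 2-4 cell libraries. It was at least 29.8-fold higher than in kyp embryos (adjusted p = 0.0339). The call was lost without kyp library 12, with isoforms summed (edgeR adjusted p = 0.0666) and with a term for the name prefix (0.128).

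Class III homeodomain factors are known targets of the microRNAs miR165 and miR166, which share a seed. The mature sequences and the matching sites are shown because PHB was called and its relatives carry nearly the same site. In the microRNAs, capitals mark the seed, bases 2 to 8. In the sites, capitals mark positions with a Watson-Crick pair to the microRNA, and all are in coding sequence, printed 5′ to 3′ from the RefSeq TAIR10.1 annotation.
miR165a-3p: tCGGACCAggcttcatccccc
miR166a-3p: tCGGACCAggcttcattcccc
PHB: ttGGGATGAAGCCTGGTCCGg
REV: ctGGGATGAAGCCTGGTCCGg
CNA: ctGGAATGAAGCCTGGTCCGg
The PHB gene lies on chromosome 2 (minus strand), REV on chromosome 5 (plus strand) and CNA on chromosome 1 (minus strand). PHB and REV are shown against miR165a and CNA against miR166a, with 18 of 21 positions paired in each. PHV, on chromosome 1, has the same site as PHB, and HB-8, on chromosome 4, has the same site as REV.

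Across 17267 tested loci with a RefSeq transcript, 6 (0.0347%) held a site for this microRNA pair with at most 3 unpaired positions and at most 1 extra base. These were the 5 class III genes and AT1G77250, a zinc finger gene. All 6 had a positive difference, with a median of 1.47, but only PHB was called, where 0.305% of all genes were called higher. PHV was at 38.01 CPM in globular embryos and 10.6 and 5.83 CPM in the kyp libraries (log2 2.24, adjusted p = 0.343). CNA was at 66.5 CPM against 14.6 and 18.22 (log2 2.01, adjusted p = 0.307). REV had a log2 difference of 0.92 and HB-8 of 0.29 (adjusted p = 0.661 and 0.981). The relation between a site and a level was not tested.

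**Figure D2:**
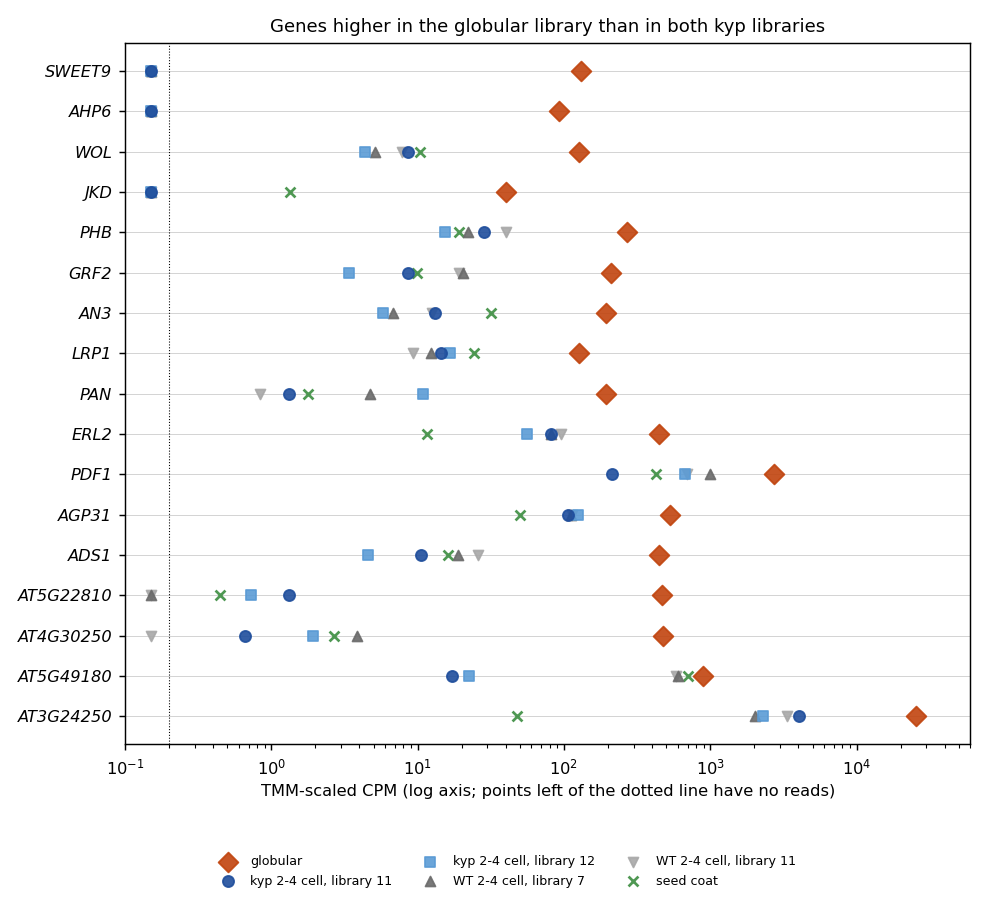
Levels (TMM-scaled CPM, log axis) of 17 genes higher in globular than in kyp embryos, 1 point per library; points left of the dotted line have no reads. The globular value (diamond) stands right of both kyp libraries for every gene, and for AT5G49180 the WT 2-4 cell libraries, at 602 and 580 CPM, stand close to it.

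The embryo patterning list held 54 genes, 43 of them tested, and its balance lay toward the globular library. Of the tested genes, 33 had a positive and 10 a negative difference, with a median of 0.92 against −0.13 over all genes. The globular value was above both kyp values in 26 and below both in 8, where 34.3% and 38.4% of all tested genes were. The summed level of all 54 genes was 2367 CPM of the locus totals in the globular library against 1323 and 1295 in the kyp libraries. Called genes numbered 2, both higher, where 0.305% of all genes were. Without the repeated loci 3 were higher, where 0.378% of all genes were, and CUC1 was added. On the 3 libraries alone 7 were higher and 1 lower, where all genes gave 185 and 363. The list median was 1.66 without kyp library 11 and 1.06 without kyp library 12.

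The shoot boundary genes of that list were read only in the globular library among these 3 libraries. CUC1, a NAC factor that sets cotyledon boundaries, had 56 reads there and none in the kyp libraries (adjusted p = 0.0689, or 0.040 without the repeated loci). CUC3, its relative, had 34 reads and none (adjusted p = 0.174). DRNL, an AP2 factor of cotyledon founder cells, had 47 reads and none (adjusted p = 0.113). A count of 0 here allows up to 3 reads per library, so absence was not shown. WOX5, a factor of the root organiser, had 23 reads in the globular library and 0 and 1 in the kyp libraries (adjusted p = 0.436), and ABI3, a regulator of seed maturation, had 119 against 13 and 0 (adjusted p = 0.128).

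Genes known from the zygote and the earliest divisions lay the other way without passing. WOX2, a homeobox gene of the apical lineage, was at 6.53 CPM in globular embryos and 58.9 and 31.8 CPM in the kyp libraries (adjusted p = 0.147). WRKY2, which acts in zygote polarity, was at 5.94 CPM against 29.1 and 35.5 (adjusted p = 0.197). WOX8, a gene of the basal lineage, had 3 reads against 11 and 46 (adjusted p = 0.681). LEC1, a regulator of embryo identity, was nearly level at 32.1 CPM against 28.4 and 21.6 (adjusted p = 0.92).

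The regulators of organ growth GRF2 and AN3 were also called higher, and were picked here for their known roles after the calls were seen. GRF2 (AT4G37740), a growth-regulating factor, was at 211 CPM in globular embryos and at 8.60 and 3.40 CPM in the kyp libraries, with 20.5 and 19.1 CPM in WT. It was 37.8-fold higher (log2 fold change 5.24, SE 0.64, adjusted p = 0.00049). AN3 (AT5G28640), also called GIF1, is the co-activator that binds such factors. It was at 195 CPM in globular embryos and at 13.2 and 5.83 CPM in the kyp libraries, a 21.5-fold difference (log2 fold change 4.42, SE 0.64, adjusted p = 0.00208). The log2 fold change of GRF2 was 5.93 with kyp library 11 left out and 4.61 with kyp library 12 left out. AN3 likewise had 5.05 and 3.88. For both genes every 2-4 cell library stood below the globular one.

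GRF genes are known targets of miR396, shown because GRF2 was called and GRF1 has the identical site. As above, capitals mark the seed of the microRNA and the paired positions of the site.
miR396a-5p: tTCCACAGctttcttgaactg
GRF2: tcGTTCAAGAAAGcCTGTGGAA
The site lies in the coding sequence of GRF2 on chromosome 4 (minus strand) and pairs at 19 positions, with 1 extra base. Of 17267 loci searched, 14 (0.0811%) held a site, 6 of them with a positive difference, and the median was −0.04. GRF2 was the only one called, where 0.305% of all genes were called higher. GRF1 had 89 reads in the globular library and 5 and 14 in the kyp libraries (adjusted p = 0.0928), and GRF9 had 51 against 3 and 0 (adjusted p = 0.142). GRF8 was at 27.9 CPM against 22.5 and 34.5 (adjusted p = 0.996).

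LRP1 (AT5G12330), a zinc finger factor named for lateral root primordia, was at 127 CPM against 14.6 and 16.8 (log2 fold change 3.01, adjusted p = 0.0227). PAN (AT1G68640), a bZIP factor that controls floral organ number, had 324 reads in the globular library and 2 and 45 in the kyp libraries (log2 fold change 4.81, adjusted p = 0.00834; 7.13 without kyp library 12 and 4.13 without kyp library 11). PAN overlaps a gene on the other strand, and whether the libraries kept strand is not stated, so its reads cannot be told apart from that neighbour's. The B3-domain genes AT1G26680 and AT3G53310 also rose, with 67 globular reads against none and with 91 against 0 and 2. The call of AT1G26680 was lost without kyp library 12 (adjusted p = 0.107), with isoforms summed (0.0748), at equal depth (0.0609) and with a term for the name prefix (0.145). That of AT3G53310 was lost with isoforms summed (adjusted p = 0.0576) and at equal depth (0.0795).

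The outer cell layer gave a mixed picture. PDF1 (AT2G42840), a proline-rich cell wall protein of the protoderm, was at 2721 CPM in globular embryos, 212 and 671 CPM in the kyp libraries and 990 and 689 CPM in WT. It was 6.15-fold higher (log2 fold change 2.62, SE 0.51, adjusted p = 0.0204). The kyp libraries themselves differed in that gene, and both stayed below the globular value. The log2 fold change of PDF1 was 2.01 without kyp library 11 and 3.68 without kyp library 12. ERL2 (AT5G07180), a receptor kinase of the ERECTA family, was at 447 CPM against 81.3 and 56.1 (log2 fold change 2.71, adjusted p = 0.00699). ERL2 is not on the list of epidermis and cuticle genes. PDF1 was the 1 member called among 22 tested genes of epidermis and cuticle, where 0.305% of all genes were called higher. The 22 genes had 12 positive and 10 negative differences and a median of 0.04. DESeq2 called 1 member higher and 1 lower, where 0.401% and 1.36% of all genes were. The list median was −0.05 without kyp library 11 and 0.18 without kyp library 12. The wax gene CER1 had 2 reads in the globular library against 39 and 83 (adjusted p = 0.142), and HTH, needed for organ separation, was at 302 CPM against 655 and 1165 (adjusted p = 0.147).

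Lipid, cell wall and other genes outside that list were also among those called higher. ADS1 (AT1G06080), a fatty acid desaturase, was at 450 CPM in globular embryos and at 10.6 and 4.62 CPM in the kyp libraries, a 63.0-fold difference (adjusted p = 4.65e-05; log2 fold change 5.98, and 6.59 without kyp library 11). WT libraries 7 and 11 held 18.8 and 26.1 CPM of ADS1. The GDSL lipase gene AT5G22810 had 786 reads in the globular library and 2 and 3 in the kyp libraries (log2 fold change 8.92, SE 0.68, adjusted p = 7.51e-06), and it overlaps a gene on the other strand. AT4G30250, a P-loop nucleoside triphosphatase, had 803 reads against 1 and 8 (log2 fold change 8.25, adjusted p = 0.000137; 9.38 without kyp library 12). The glycine-rich protein gene AT3G24250 was the most abundant gene called, with 25583 CPM in globular embryos and 4023 and 2302 CPM in the kyp libraries (log2 fold change 3.02, adjusted p = 0.00054). AGP31, an arabinogalactan protein of the cell wall, was at 528 CPM against 107 and 125 (log2 fold change 2.18, adjusted p = 0.0241).

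SWEET9 (AT2G39060), a sucrose facilitator known from nectaries, was among the transport genes called higher. SWEET9 had 221 reads in the globular library and none in either kyp library, either WT library or the seed coat. Its reads covered 83.4% of the transcript. The globular level of 131 CPM was at least 96.8-fold higher than that of the kyp libraries (adjusted p = 0.00044). SWEET9 was the 1 gene called among 12 tested sugar transporters, where 0.305% of all genes were called higher. The median difference of the 12 was −0.81. SWEET8, a relative, was at 24.9 CPM against 93.9 and 83.6 (adjusted p = 0.216). The purine permease gene PUP4 was at 1163 CPM in globular embryos and 151 and 235 CPM in the kyp libraries (log2 fold change 2.59, adjusted p = 0.00727). MSL5, named for mechanosensitive channels, passed the test with 146 globular reads, but they covered only 10.7% of its transcript.

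No gene of the lists of ribosomal proteins, histones or cell cycle and replication was called. Of 303 tested ribosomal protein genes, 254 had a positive and 49 a negative difference, with a median of 0.53 (0.43 against kyp library 11 and 0.66 against kyp library 12). The globular value was above both kyp values in 225 of them and below both in 32, where 34.3% and 38.4% of all genes were. At an unadjusted p under 0.05 there were 32 higher and 9 lower, where all genes give 3.76% and 7.3%. DESeq2 called 2 higher and 1 lower, where 0.401% and 1.36% of all genes were. Other settings called no ribosomal protein gene higher and up to 4 lower: 4 without the low-count filter and on the 3 libraries alone, 3 without kyp library 11, WT library 7 or WT library 11, and 1 without kyp library 12. Of 40 histone genes, 35 had a positive difference, and the median was 0.68. The globular value was above both kyp values in 32 and below both in 2, where 34.3% and 38.4% of all genes were. At an unadjusted p under 0.05 there were 6 higher, where 3.76% of all genes were, and DESeq2 called none. HTB4, a gene of histone H2B, was at 1170 CPM against 675 and 774 (adjusted p = 0.572). The 46 cell cycle and replication genes had a median of 0.35, with 30 positive. Of them, 3 were higher at an unadjusted p under 0.05, where 3.76% of all genes were, and none by DESeq2. KN, the syntaxin of the cell plate, was at 357 CPM against 138 and 152 (adjusted p = 0.217). In bulk libraries, more cells of a type and more RNA per cell cannot be told apart.

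**Figure D3:**
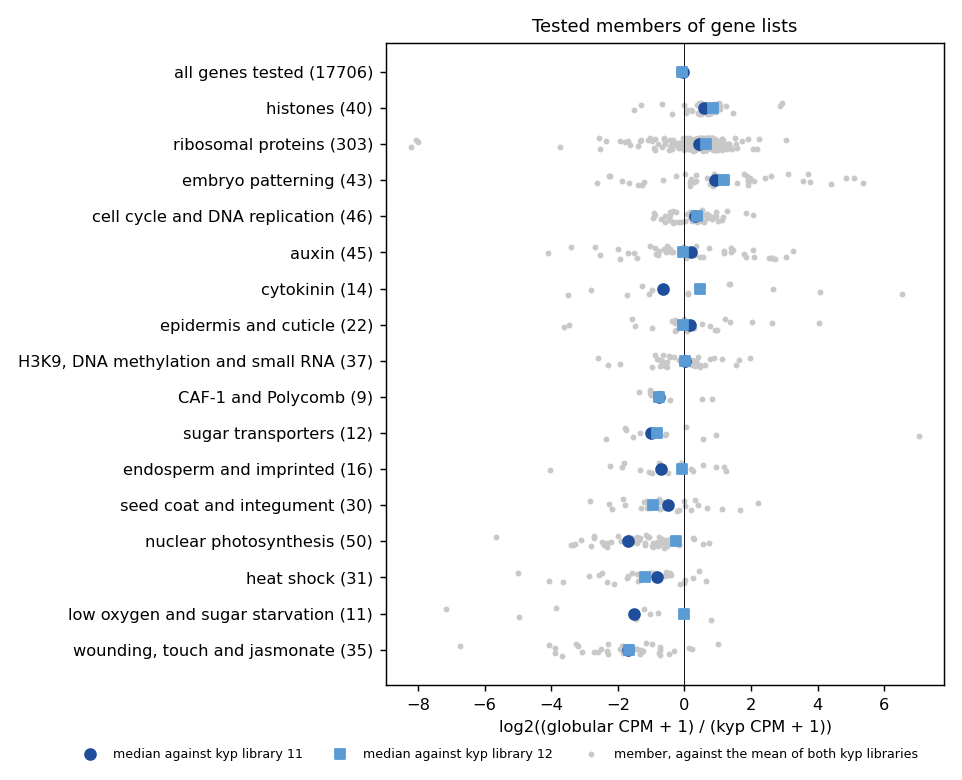
Differences of the tested members of 16 gene lists, with their number in brackets and all tested genes at the top, on a log2 scale of globular over kyp CPM with 1 added to each. Grey points are members against the mean of both kyp libraries, and the circle and square are list medians against kyp library 11 and 12; photosynthesis and low oxygen medians (−1.70 and −1.52 against library 11) lie near 0 against library 12 (−0.24 and 0.00).

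Several lectin and defence genes were among those called lower, and were picked here from the calls. JAL23 (AT2G39330), a jacalin-related lectin, had 4 reads in the globular library against 1107 and 4765 in the kyp libraries, with levels of 2.38, 732 and 1158 CPM. WT libraries 7 and 11 were at 830 and 749 CPM, in the range of the kyp libraries. The log2 fold change was −8.61 (SE 0.74, adjusted p = 8.94e-06). BGLU18 (AT1G52400), a β-glucosidase of the ER body, was at 99.8 CPM in globular embryos and 1940 and 3444 CPM in the kyp libraries (log2 fold change −4.75, SE 0.57, adjusted p = 0.00044). TSA1 (AT1G52410), a companion ER body protein encoded next to it, was at 57.0 CPM against 282 and 576 (log2 fold change −2.91, adjusted p = 0.0211; −2.30 without kyp library 12).

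MBP1 and MBP2, myrosinase-binding proteins, which attach to the enzymes that break down glucosinolates, were called lower. MBP1 was at 5.34 CPM in globular embryos and 106 and 208 CPM in the kyp libraries (log2 fold change −4.87, adjusted p = 0.00254). MBP2 was at 134 CPM against 1111 and 2297 (log2 fold change −3.67, adjusted p = 0.00223; −3.05 without kyp library 12). JR1, a jasmonate-responsive lectin, was at 35.6 CPM against 411 and 587 (log2 fold change −3.81, adjusted p = 0.00356), and it overlaps another lectin gene on the other strand. None of the kyp values came near the globular value in these genes.

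**Figure D4:**
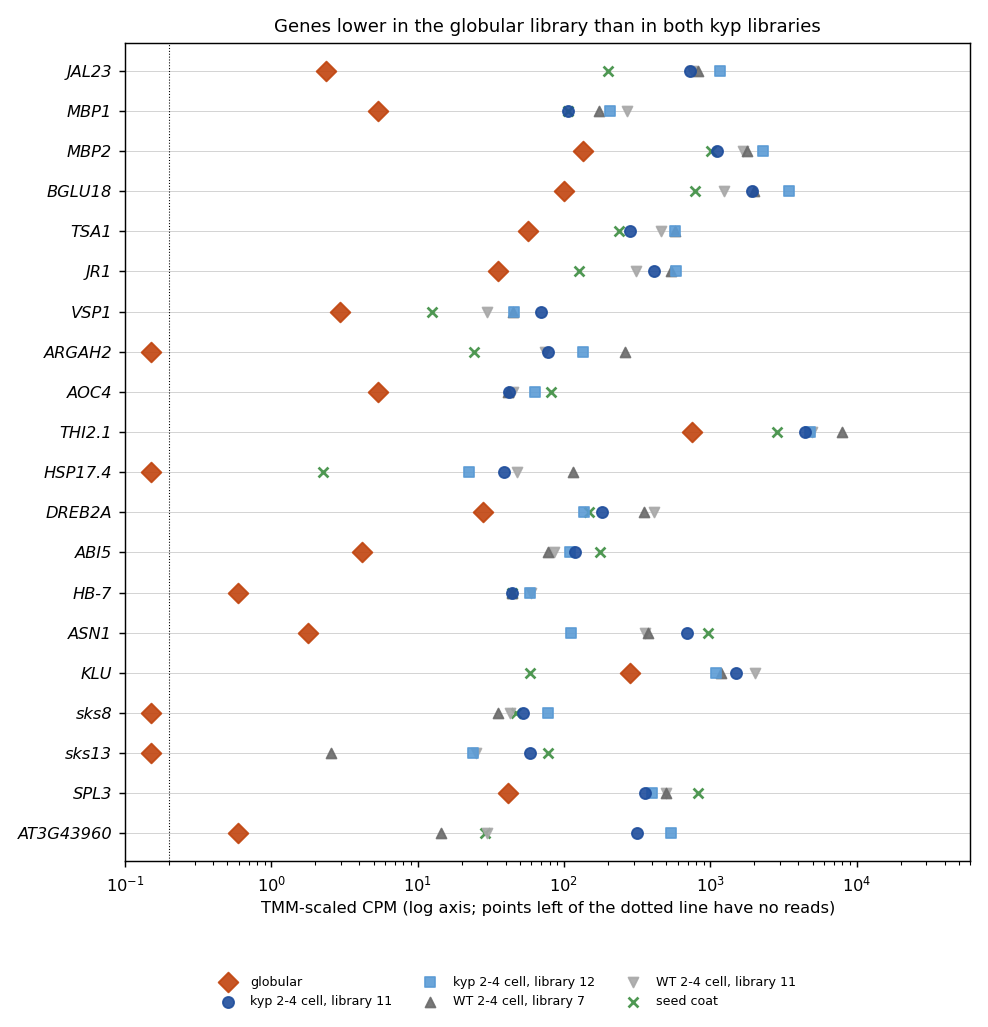
Levels (TMM-scaled CPM, log axis) of 20 genes called lower in the globular library, 1 point per library; points left of the dotted line have no reads. The globular diamond stands left of both kyp libraries for every gene, while for AT3G43960 the WT 2-4 cell libraries, at 14.5 and 29.7 CPM, stand below the kyp libraries at 317 and 537 CPM.

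Jasmonate is a lipid hormone of wounding that is made from plastid fatty acids and acts by removing JAZ repressors. In the list of wounding, touch and jasmonate genes, ARGAH2 and VSP1 fell. ARGAH2 (AT4G08870), a jasmonate-induced arginase, had no reads in the globular library and 117 and 552 in the kyp libraries. It was at least 59.4-fold lower (adjusted p = 0.00224). VSP1, vegetative storage protein 1, had 5 reads against 106 and 189 (log2 fold change −4.26, SE 0.87, adjusted p = 0.0263). Of 35 tested members, 3 had a positive and 32 a negative difference, with a median of −1.89 (−1.70 against kyp library 11 and −1.66 against kyp library 12). The globular value was below both kyp values in 29 and above both in 1, where 38.4% and 34.3% of all genes did so. At an unadjusted p under 0.05, 19 members were lower, where 7.3% of all genes were.

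The whole list summed to 1136 CPM of the locus totals in the globular library and to 2637 and 2939 in the kyp libraries. Both WT libraries were higher still, at 3987 and 4348 CPM, and the seed coat was at 3453. DESeq2 called 7 members lower, where 1.36% of all genes were. Without the repeated loci 4 were lower, where 0.892% of all genes were, and ERF104 and CAF1a were added. The list median was −1.99 without kyp library 11 and −1.79 without kyp library 12. OPR3, an enzyme of jasmonate synthesis, was at 11.3 CPM against 53.6 and 83.3 (adjusted p = 0.0858). JAZ6 had no reads against 19 and 78 (adjusted p = 0.0845), and MYC2, the transcription factor that JAZ proteins repress, was at 92.6 CPM against 261 and 349 (adjusted p = 0.125). TCH3, a touch-induced calmodulin-like protein, had 3 reads against 34 and 93 (adjusted p = 0.142).

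Outside the list, AOC4, an allene oxide cyclase of jasmonate synthesis, had 9 reads in the globular library and 64 and 260 in the kyp libraries (log2 fold change −3.30, adjusted p = 0.0397; 0.0566 without kyp library 12). THI2.1, a jasmonate-inducible antimicrobial thionin, was the most abundant gene called lower, at 755 CPM in globular embryos and 4474 and 4789 CPM in the kyp libraries (log2 fold change −2.62, SE 0.41, adjusted p = 0.0038). WT libraries 7 and 11 held 7999 and 4986 CPM of it. THI2.1 overlaps a gene on the other strand.

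Heat shock genes also lay mostly lower. HSP17.4, a small heat shock protein, had no reads in the globular library and 59 and 92 in the kyp libraries, at least 17.2-fold lower (adjusted p = 0.0141). DREB2A, a factor of drought and heat responses, was at 27.9 CPM against 183 and 137 (log2 fold change −2.51, SE 0.54, adjusted p = 0.0333). Both overlap a gene on the other strand. They were the 2 called of 31 tested heat shock genes, where 0.553% of all genes were called lower. Of the 31, 27 had a negative difference. The list median was −1.05, or −0.92 with genes without reads set at their bound. Without the repeated loci 4 were called lower, where 0.892% of all genes were. The list median was −1.20 without kyp library 11 and −0.84 without kyp library 12. The summed level of the list differed little, at 5019 CPM in globular embryos and 5183 and 5237 CPM in the kyp libraries, with 8591 and 6307 CPM in the WT libraries.

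**Figure D5:**
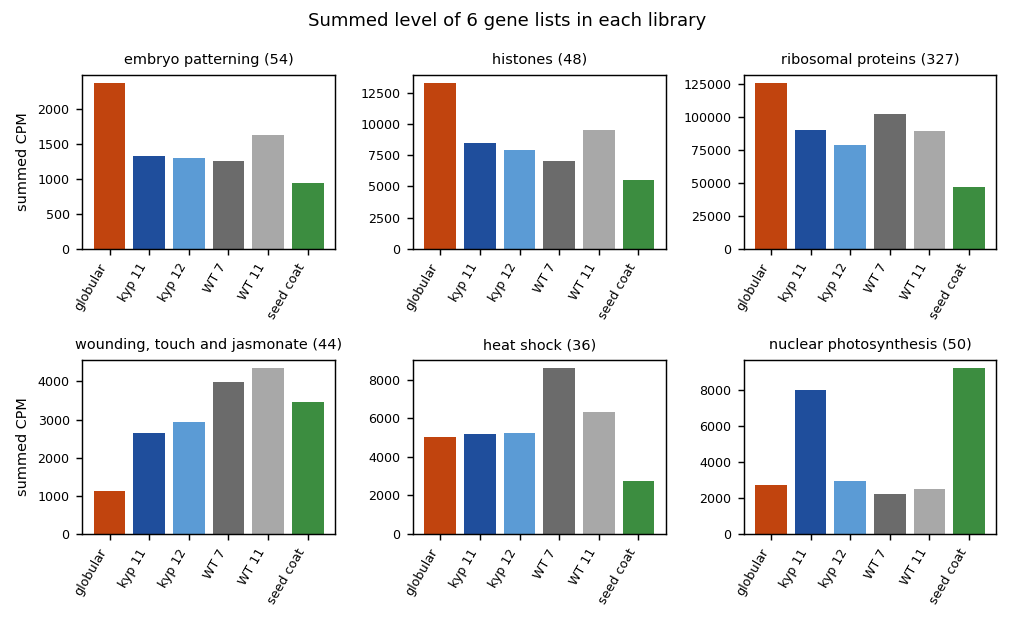
Summed CPM of the locus totals of all members of 6 gene lists, with the number of members in brackets, 1 bar per library and a separate axis from 0 in each panel. The globular bar is the highest for embryo patterning, histones and ribosomal proteins and the lowest for wounding (1136 CPM); the photosynthesis bar of kyp library 11 (8017 CPM) is near that of the seed coat (9205 CPM).

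The genes called lower also included ABI5, HB-7 and ASN1. The first pair was picked from the calls for known roles. ABI5 (AT2G36270), a bZIP factor of abscisic acid responses in seeds, was at 4.16 CPM in globular embryos and 119 and 110 CPM in the kyp libraries (log2 fold change −4.77, SE 0.68, adjusted p = 0.00187). HB-7, a homeobox gene induced by abscisic acid, had 1 read against 67 and 240, a ratio of 91.8 (95% counting interval 16.4 to 3640; adjusted p = 0.00454). ASN1, an asparagine synthetase induced by darkness and low sugar, had 3 reads against 1041 and 459, or 1.78 CPM against 688 and 112, and overlaps a gene on the other strand. The ratio was 149.6 (51.1 to 726; adjusted p = 0.00213), with 386 (132 to 1877) against kyp library 11 and 62.6 (21.3 to 305) against kyp library 12. ASN1 was the 1 member called of 11 tested genes of low oxygen and sugar starvation, where 0.553% of all genes were called lower. The list median of −1.48 (−1.21 with genes at their bound) was 0.00 without kyp library 11 and −2.13 without kyp library 12.

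SPL3 (AT2G33810), a transcription factor that promotes the change from juvenile to adult growth, is a known target of miR156, which acts in early embryos. It was at 41.6 CPM in globular embryos and at 358 and 399 CPM in the kyp libraries. WT libraries 7 and 11 were both at 498 CPM and the seed coat at 829 CPM, so the globular library was the lowest of all 6. SPL3 was 9.10-fold lower (log2 fold change −3.19, SE 0.51, adjusted p = 0.00439). The antisense locus AT2G33815 covers the gene, and its 66, 526 and 1590 reads were nearly those of SPL3 (70, 542 and 1641), so reads of the pair cannot be told apart. The site, in the 3′ untranslated region on chromosome 2 (plus strand), is shown with the microRNA because it pairs at 18 of 20 positions.
miR156a-5p: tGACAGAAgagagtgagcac
SPL3: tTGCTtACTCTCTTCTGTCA
Of 17267 loci searched, 29 (0.168%) held a miR156 site by the same rule, with a median difference of −0.37, and 10 were positive. SPL3 was the only one called, where 0.553% of all genes were called lower. SPL10 was at 8.31 CPM against 0.661 and 16.8, and SPL11 at 5.34 CPM against 17.2 and 6.80 (adjusted p = 0.991 and 0.831).

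KLU and DVPE, which are also expressed around the embryo, moved in opposite directions. KLU (AT1G13710), a cytochrome P450 that promotes organ and seed growth, was at 284 CPM in globular embryos and 1509 and 1088 CPM in the kyp libraries, but at only 58.7 CPM in the seed coat (log2 fold change −2.19, SE 0.49, adjusted p = 0.0407). DVPE (AT3G20210), a vacuolar processing enzyme of dying inner integument cells, was at 863 CPM against 259 and 111 (log2 fold change 2.23, adjusted p = 0.0435), with 135 CPM in the seed coat. DVPE overlaps a gene on the other strand, and its call was lost without kyp library 12 (adjusted p = 0.112). They were the 2 members called of 30 tested seed coat and integument genes, where 0.858% of all genes were called in either direction. The median difference of the 30 was −0.73.

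Reads of defining seed coat genes were present in all 3 libraries. BAN, an enzyme of proanthocyanidin synthesis, was at 112 CPM in globular embryos and 161 and 223 CPM in the kyp libraries. The 30 genes of the list summed to 10200 CPM of the locus totals in the globular library and to 10415 and 12554 in the kyp libraries. The sum was 9640 in the seed coat library itself and 15460 and 9511 in WT libraries 7 and 11. It did not set the seed coat library apart, so it gives no measure of seed coat RNA. The part of seed coat RNA in the differences was not tested. Endosperm and imprinted genes had 0 of 16 called and 0 by DESeq2. At an unadjusted p under 0.05, 1 was lower, where 7.3% of all genes were. MEA, the maternally expressed Polycomb gene, had no reads in the globular library and 29 and 48 in the kyp libraries (adjusted p = 0.168). The sperm marker DUO1 had no reads in any library, and VGD1, a pectin methylesterase of pollen, had 3 reads against 28 and 82 (adjusted p = 0.365). LAT52-like, of the pollen Ole e 1 family, had 3 reads against 38 and 53 (adjusted p = 0.34). WT libraries 7 and 11 had 2 and 25 reads of VGD1 and 0 and 3 of LAT52-like. Both genes, the 2 tested of the pollen and sperm list, were lower at an unadjusted p under 0.05, where 7.3% of all genes were. The list summed to 4.75 CPM in globular, 47.0 and 33.3 in kyp, 2.56 and 8.69 in WT and 48.8 in seed coat libraries. The part of pollen RNA was not tested.

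Nuclear photosynthesis genes differed between the kyp libraries. All 50 were tested with none called. At an unadjusted p under 0.05, 18 were lower, where 7.3% of all genes were. DESeq2 called 2 lower, where 1.36% of all genes were. Their summed level was 2744 CPM in globular embryos, but 8017 in kyp library 11 and 2914 in kyp library 12. The median difference was −1.70 against the former and −0.24 against the latter. The median of fitted differences was −1.19, and it was −0.25 without kyp library 11 and −1.78 without kyp library 12. LHB1B2, a light-harvesting protein that overlaps genes on the other strand and shares sequence with its paralogues, is not on the list and was called, at 39.2 CPM against 395 and 158 (log2 fold change −2.81, adjusted p = 0.0423). Without kyp library 11 that call was lost (log2 fold change −2.01, adjusted p = 0.0588).

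Genes of H3K9 methylation, DNA methylation and small RNA pathways, where KYP acts, showed no called difference. Of 37 tested, 18 were positive and 19 negative, with a median of −0.18. At an unadjusted p under 0.05 there were 2 in each direction, where 3.76% of all genes were higher and 7.3% lower. DESeq2 called none. AGO4, an Argonaute of RNA-directed DNA silencing, was at 286 CPM in globular embryos and 200 and 138 CPM in the kyp libraries (log2 0.76, SE 0.45, adjusted p = 0.585). CMT2, a DNA methyltransferase that binds H3K9 methylation, was at 37.4 CPM against 6.61 and 11.2 (adjusted p = 0.355). SUVH3, a relative of KYP, was at 121 CPM against 42.3 and 34.5 (adjusted p = 0.189). Outside that list, DRB3, a double-stranded RNA binding protein, was called higher, at 67.7 CPM against 3.97 and 3.64 (log2 fold change 4.14, adjusted p = 0.0241; 0.0634 without kyp library 12). The 9 CAF-1 and Polycomb genes had none called and none by DESeq2, with a median of −0.96. Of them, 1 was lower at an unadjusted p under 0.05, where 7.3% of all genes were.

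Loci annotated as pseudogenes or transposons numbered 3925, of which 147 had enough reads to be tested. SADHU1-2, a retroelement of the Sadhu family, had 169 reads in the globular library and 7 and 27 in the kyp libraries (log2 fold change 4.12, SE 0.75, adjusted p = 0.0117). AT3G42052 was also higher, at 79.0 CPM against 9.26 and 10.9, with 39.3 and 54.4 CPM in WT libraries 7 and 11. Its globular reads covered only 9.5% of the transcript, and the call was lost in edgeR with isoforms summed (adjusted p = 0.0532). AT2G20460 and AT3G17050 were lower. AT3G17050 had 3 reads against 42 and 420, with 163 and 320 in WT libraries 7 and 11. Of the tested loci, 2 were called higher and 2 lower, where 0.305% and 0.553% of all genes were. The median difference was −2.36 (−1.10 with loci at their bound). It was −0.15 against kyp library 11 and −1.40 against kyp library 12. Without the repeated loci the fitted median was −1.89 over 135 loci. Of these, 4 were called higher and 5 lower, where 0.378% and 0.892% of all genes were. The fitted median was −1.96 without kyp library 11 and −0.15 without kyp library 12.

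In a few called genes the kyp libraries stood apart from the WT 2-4 cell libraries as well, by the test of kyp against WT in the same fit. They were picked by that test after their values were seen. AT5G49180, of the family of pectin methylesterase inhibitors, was at 892 CPM in globular embryos, 17.2 and 22.6 CPM in the kyp libraries and 602 and 580 CPM in WT, so the kyp libraries were the low ones. It was 44.3-fold higher in globular than in kyp embryos (adjusted p = 7.51e-06), and kyp differed from WT by −4.87 (SE 0.42, adjusted p = 2.6e-05). AT3G43960, a cysteine proteinase gene, had 1 read in the globular library against 480 and 2209 in kyp, a ratio of 804.5 (95% counting interval 144 to 31788; adjusted p = 0.000131), with 34 and 106 reads in WT. The ratio was 534.5 (95.5 to 21155) against kyp library 11 alone.

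The receptor kinase gene AT1G69990 had no reads in the globular library, 33 and 262 in the kyp libraries and 0 and 3 in WT. The pseudogene locus AT2G20460 had none, then 52 and 194, with 1 in each WT library. For both, the globular and WT libraries were low together and the kyp libraries were high (globular against kyp, adjusted p = 0.0423 and 0.0241). Neither call held without kyp library 12. That of AT1G69990 was also lost by DESeq2's Wald test (adjusted p = 0.404). The same held in edgeR with isoforms summed (adjusted p = 0.0788) and at equal depth (0.0616). BG3, a β-1,3-glucanase, was graded, at 384 CPM in globular embryos, 54.2 and 42.0 CPM in the kyp libraries and 6.83 and 1.68 CPM in WT (globular over kyp log2 fold change 3.00, adjusted p = 0.0148; kyp over WT 3.56, adjusted p = 0.0245).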

How the data were processed

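The labels' protocols give PicoPure extraction of total RNA, linear amplification (WT-Ovation Pico), tailing, shearing and SOLiD adaptors. Reads carry no molecular identifiers, so intervals and floors cover counting error only. The authors deposited read counts for each transcript, per the file headers, beside its covered bases and length. In the libraries named with MC the deposited values include estimated counts that end in 0.5 and were rounded to whole numbers. The aligner, counting tool and genome build are not given in the sources used here, so no coordinates are printed. RefSeq TAIR10.1 served only for names, products, overlapping genes, repeated sequence, microRNAs and their sites (31584 of 32140 loci matched).

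For each locus the isoform with the highest read sum in the 6 libraries was kept. Depth per library ranged from 1448503 to 4107228 reads. Genes were tested with edgeR 4.0.16 in R 4.3.3 (TMM scaling, filterByExpr at its minimum of 10 counts, the quasi-likelihood F test, Benjamini-Hochberg at 0.05) on all 6 libraries in 4 groups, with 2 residual degrees of freedom, and the step was tested on simulated data. Every adjusted p is from that fit over all genes tested unless another tool is named. Standard errors are log2 fold changes over the root of F, without sign. Where a group has no reads, the fold is a bound at a floor of 3 reads in each library. Where it has 1 to 3, a ratio with its 95% exact Clopper-Pearson counting interval is given. Alternatives were DESeq2 1.42.0, other scaling and filters, fewer libraries, summed isoforms, equal depth, a term for the name prefix and, added later, leaving out 1038 loci with at least 90% of their 31-base words repeated in the genome.

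The members and the 20 gene lists were chosen with earlier results of these data known. Named genes are KYP, in each direction the 12 called genes with the largest fold change (at least 20 mean reads, no overlap) and the 6 with the highest level, and per list up to 4 called members or, with none, the 2 with the highest level. Further genes were named after their values were seen, for their known roles. List members are described by counts and medians, with no test of a list. The 5 transcripts missing from some files were left out. Not every called gene is described, and 1 result is not reported here.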

Additional observations from a re-analysis of the deposited data

How the results depend on the processing

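The main counts were 54 genes higher and 98 lower. Without the low-count filter there were 141 and 387. DESeq2's Wald test gave 241 lower, the fit on the 3 libraries alone gave 185 and 363, the term for the name prefix gave 249 lower, and leaving out the repeated loci gave 158 lower. Summing isoforms gave 32 and 63. Leaving out 1 of the 2-4 cell libraries gave 55 to 152 higher (without kyp library 12 and WT library 7) and 217 to 379 lower (the same libraries). With DESeq2's size factors (55 and 96), without the seed coat library (59 and 104) and thinned to equal depth (54 and 97) the counts moved by less than 1.5 times. Of the 152 calls, 152 were shared without the filter, with 3 libraries, without either WT library and without the repeated loci, 145 without kyp library 11, 130 without kyp library 12, 133 at equal depth, 141 by DESeq2 and 87 with isoforms summed. No named gene reversed. Of 46 called genes named by the rule, 12 lost the call with isoforms summed (KLU, DVPE and JKD among them), 7 without kyp library 12, 6 at equal depth, 4 with the prefix term and 1 each with DESeq2, without kyp library 11 and without the seed coat library. List medians kept their sign under every alternative except those of auxin, cytokinin, epidermis, H3K9 pathways and seed storage, and low oxygen reached 0.00. No paired analysis was possible because the globular library shares no replicate number with a kyp library.

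The globular group is 1 library, so its own spread was not measured and was taken from the 2-4 cell pairs. Genes with fewer than about 3 reads per library could not be told from 0.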
